A study of Mus musculus with 2 samples.

Results

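Activated conventional CD4 T cells were 426 of the 19999 cells that passed the cell filter, 113 of 9814 in the Ctrl library and 313 of 10185 in the KD library. They were chosen by measured counts of UMIs (molecular barcodes that let each captured RNA be counted once): at least 2 UMIs of Cd3d, Cd3e and Cd3g together, at least 1 of Cd4, and none of Cd8a, Cd8b1, Foxp3, Csf1r or Cd79a. Cells in which Ikzf2, Il2ra and Ctla4 were all detected, as in regulatory T cells (Treg), and cells in which Lef1 and Tcf7 were both detected, as in naive T cells, were left out. The levels of these genes therefore describe the selection, and the values of the same cells beside other T cells are given without a test.

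The study asked what becomes of the immune cells in colorectal liver metastases when the tumor cells have less SLAMF3, the product of Ly9 and one of the SLAM receptors. MC38-LM3b, a derivative of the murine colorectal cancer line MC38 selected for spread to the liver, carried a scrambled hairpin (shScramble, Ctrl) or a hairpin against SLAMF3 (shSLAMF3, KD). C57BL/6 mice of 6 to 8 weeks received 1000000 of these cells by injection into the spleen, and CD45+ cells of the liver metastases were sequenced 2 weeks later with the 10x Genomics 3' assay. Each group was 1 library that pooled 3 mice, and 1 hairpin was used. The mice and their T cells carried no hairpin in either group. No spread between mice can be estimated from such a design, so no test was made, and each interval given is a 95% interval for counting error only.

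Conventional CD4 T cells are the helper arm of adaptive immunity. Once a peptide on MHC class II has engaged their receptor, they display ligands such as CD40L, which licenses antigen-presenting cells, and receive costimulation through ICOS and OX40. Under different cytokines they can take on a Th1 program around T-bet and interferon-gamma, a Th2 program around GATA3 and IL-4, a Th17 program around IL-17, or a follicular program around BCL6 and CXCR5, and Th1 cells are those most often linked to control of tumors.

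The Ctrl cells held 524571 UMIs with a median of 4082 UMIs and 1843 genes per cell, and the KD cells held 1621447 UMIs with a median of 4360 UMIs and 1853 genes. The libraries shared 27 cell barcodes, and none of them marked an activated conventional CD4 T cell. RNA of other cells differed between the libraries in these cells. The 6 neutrophil markers summed to 172 CPM (UMIs per 1000000 UMIs of the cells summed) in Ctrl and 2161 CPM in KD, and were found in 20 of 113 and 184 of 313 cells. In KD 1 cell held 909 of 1315 S100a8 UMIs and 1 cell 1270 of 1940 S100a9 UMIs. In B cells they summed to 1389 and 4975 CPM and in CD8 T cells to 152 and 2270 CPM. The 3 endothelial markers summed to 1.91 and 102 CPM, and the 10 macrophage markers to 347 and 479 CPM, whereas the 4 hepatocyte markers summed to 0 and 2.47 CPM and the 4 NK markers to 9.53 and 15.4 CPM in 2 and 10 cells, with Ncr1 and Klra8 at 0 in both. Their part in the differences described here was not tested beyond the values given with them.

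The KD library held more of these cells than the Ctrl library, also relative to its size. They were 1.15% (0.95 to 1.38%) of filtered Ctrl cells and 3.07% (2.75 to 3.43%) of filtered KD cells, a difference of 1.92 percentage points (1.52 to 2.33). Among CD3+ cells the shares were 3.48% (2.88 to 4.17%) and 15% (13.5 to 16.6%), a difference of 11.5 percentage points (9.88 to 13.3). The CD3+ cells of the Ctrl library were mostly CD8 T cells, of which there were 2261 in Ctrl and 877 in KD. Within CD4 T cells the balance was close: the activated conventional cells were 113 of 156 Cd4+ Cd8- CD3+ cells in Ctrl (72.4%, 64.7 to 79.3%) and 313 of 424 in KD (73.8%, 69.4 to 77.9%). That difference was 1.38 percentage points, with an interval from -6.78 to 10.1. The rest of the CD4 T cells were Treg cells, 30 of 156 in Ctrl and 60 of 424 in KD, and naive-like cells with both Lef1 and Tcf7, 13 and 51. Among CD3+ cells the difference thus lay in CD4 T cells as a whole, which were 4.81% (4.10 to 5.60%) of CD3+ cells in Ctrl and 20.3% (18.6 to 22.1%) in KD. Outside them, B cells, 156 in Ctrl and 590 in KD, and neutrophils, 322 and 1608, were also more numerous in KD. As pooled shares of 1 library each, these values cannot tell more CD4 T cells from fewer other cells.

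**Figure D1:**
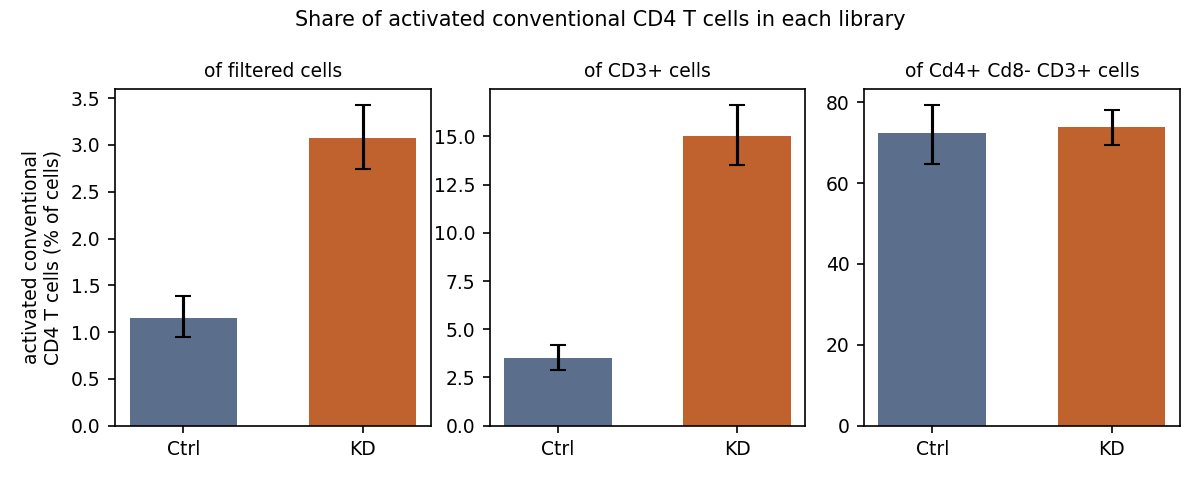
Bars give the percentage of cells that were activated conventional CD4 T cells, with filtered cells, CD3+ cells and Cd4+ Cd8- CD3+ cells as the denominator, in 1 library per group; lines are exact 95% counting intervals. The KD share was higher with the first denominators (3.07% against 1.15%, and 15% against 3.48%), and the intervals overlapped with the third (73.8% against 72.4%).

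The selection left cells close to its limits on either side. Beside the 57 Ctrl and 110 KD cells with exactly 1 Cd4 UMI, 341 Ctrl and 383 KD cells met every other condition but had no Cd4 UMI. Cd40lg was detected in 4.99% and 14.6% of those outside, in 28.1% and 33.6% of the cells with 1 Cd4 UMI, and in 35.7% and 36.5% of the cells with more. Only 5 Ctrl and 3 KD cells missed the CD3 limit by holding 1 UMI, with 8 and 20 cells just inside at 2 or 3 UMIs, and 5 and 7 cells were kept out by a single Cd8 UMI. On the inside, 63 Ctrl and 143 KD cells held Lef1 or Tcf7 but not both, and 50 and 122 held a pair of Ikzf2, Il2ra and Ctla4. When only cells with at least 2 Cd4 UMIs were kept, the share among Cd4+ Cd8- CD3+ cells was 12.0 percentage points higher in KD (0.927 to 24.1), where the difference had been 1.38.

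The markers of the label were present. Cd40lg (ENSMUSG00000031132), which encodes CD40L, stood at 107 CPM in Ctrl and 115 CPM in KD and was detected in 31.9% (23.4 to 41.3%) and 35.5% (30.2 to 41.0%) of the cells. In CD8 T cells it stood at 0.194 and 0.547 CPM, and no UMI was seen in 156 Ctrl and 590 KD B cells, which allows a share of B cells with a UMI of up to 1.92% and 0.508%. Of the markers other than Cd4 it had the highest ratio over CD8 T cells. Naive-like CD4 T cells held it at 112 and 132 CPM, and Treg cells at 14.2 and 40.1 CPM.

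Tnfrsf4 (ENSMUSG00000029075), which encodes the costimulatory receptor OX40, was at 511 CPM in Ctrl and 401 CPM in KD, a log2 ratio of -0.35 (-0.56 to -0.14). Treg cells had more of it, at 780 and 677 CPM, and CD8 T cells less, at 119 and 87.2 CPM. Icos (ENSMUSG00000026009), a costimulatory receptor of the CD28 family, was at 435 and 329 CPM, a log2 ratio of -0.40 (-0.63 to -0.17). Its ratio changed sign, to 0.23, when cells with Ikzf2 or with both Il2ra and Ctla4 were left out, which kept 46 Ctrl and 166 KD cells. Rora (ENSMUSG00000032238), a nuclear receptor transcription factor, was at 778 and 590 CPM, a log2 ratio of -0.40 (-0.57 to -0.23), and at 78.0 and 81.0 CPM in CD8 T cells.

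Tnfsf8 (ENSMUSG00000028362), which encodes the ligand CD30L, was at 204 and 228 CPM with a log2 ratio of 0.16 (-0.16 to 0.48), and at 4.85 and 16.5 CPM in CD8 T cells. Cd4 (ENSMUSG00000023274) itself was at 448 CPM in each library. Of Icos, Tnfrsf4, Tnfsf8, Cd40lg and Rora, at least 2 were found in 98 of 113 Ctrl cells (86.7%, 79.1 to 92.4%) and in 249 of 313 KD cells (79.6%, 74.7 to 83.9%), and none in 5 and 19 cells. The cells without any held a median of 3643 UMIs in Ctrl and 2902 UMIs in KD. At least 2 of these 5 genes were thus found in most, but not all, of the cells that the rule took in. Treg cells, which it left out, held Icos in 96.7% and 91.7%, Tnfrsf4 in 100% and 90% and Rora in 90% and 86.7% of cells. They held Cd40lg in 10% and 13.3% and Tnfsf8 in 20% and 8.33%. This count therefore cannot tell the activated conventional cells from Treg cells. Of the activated conventional cells, 38.9% and 34.2% held both Ikzf2 and Ctla4, and 55.8% and 45.7% held Lef1 or Tcf7.

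**Figure D2:**
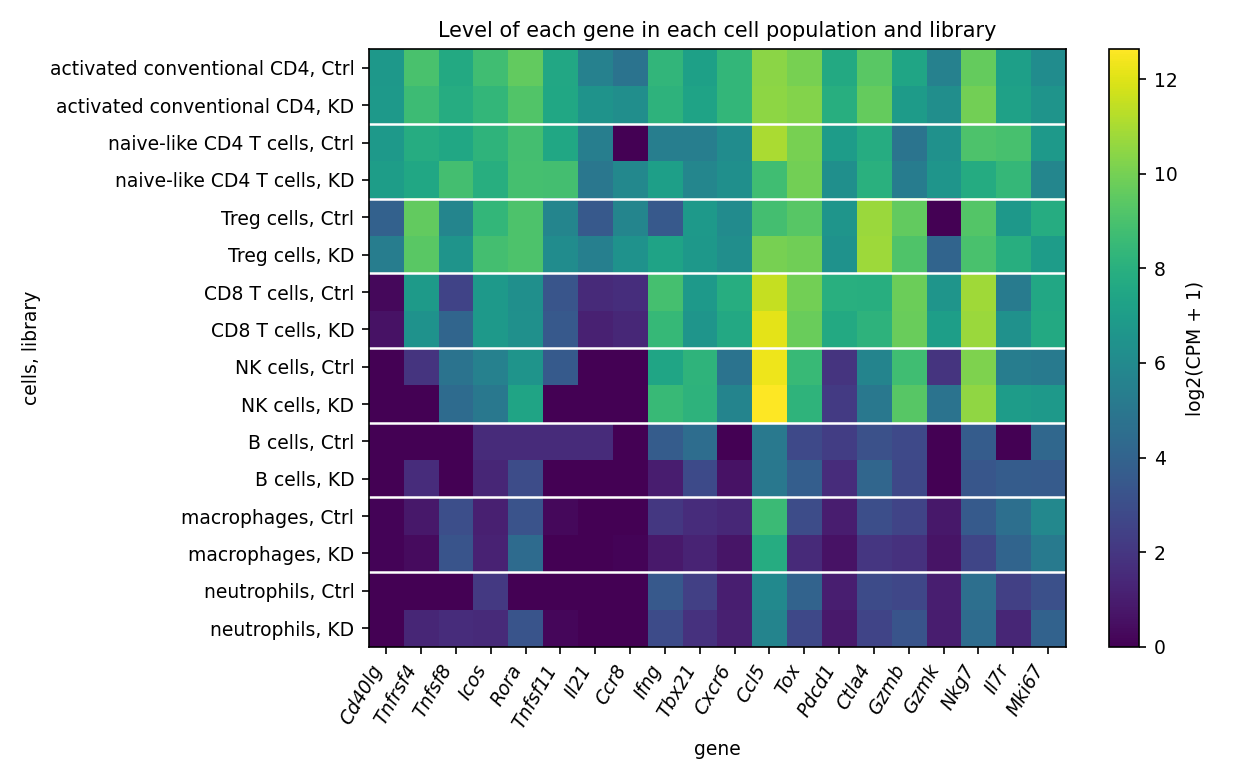
Colors give log2(CPM + 1) of 20 genes (columns) summed over the cells of each population in each library (rows). Cd40lg, Tnfsf11, Il21 and Ccr8 stood out in the CD4 T cells, with Cd40lg at 107 and 115 CPM in the activated conventional cells and below 1 CPM in CD8 T cells, while Ccl5 and Nkg7 were higher in CD8 T cells.

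Against CD8 T cells, which share the T cell receptor and much of the activation program, the 15 highest ratios by rule included the ligands and cytokine Cd40lg, Tnfsf8, Tnfsf11 and Il21 and others such as Asb2, Klf12, Hs6st3 and Lgals7. Il21, a helper cytokine, was at 45.8 CPM in Ctrl and 87.6 CPM in KD and at 1.80 and 1.23 CPM in CD8 T cells. Tnfsf11, which encodes the ligand RANKL, was at 187 and 181 CPM and at 9.12 and 10.7 CPM in CD8 T cells. Ccr8, a chemokine receptor also known from tumor Treg cells, was at 26.7 and 73.4 CPM, Ramp3, which encodes a partner protein of calcitonin-type receptors, at 101 and 91.3 CPM, and its relative Ramp1 at 68.6 and 147 CPM. Treg cells held more Ccr8, at 53.2 and 86.9 CPM, and less Ramp3, at 21.3 and 29.0 CPM, and held Ramp1 at 99.3 and 86.9 CPM. Gcg, the gene of proglucagon, was also among the 15 highest over CD8 T cells, with 35 UMIs in 6 Ctrl cells and 253 UMIs in 8 KD cells. A single KD cell held 169 of these, and no Gcg UMI was seen in CD8 T cells, Treg cells, naive-like CD4 T cells or B cells.

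Against naive-like CD4 T cells the highest ratio belonged to Ccl1, the chemokine that binds CCR8, at 412 CPM in Ctrl and 284 CPM in KD against 0 and 3.46 CPM in naive-like cells. It lay in 13 Ctrl and 39 KD cells. Gcg, Igfbp7, Lgals7, Ccl4 and Fabp4 followed. Of these, Fabp4 had 2 UMIs in Ctrl, and 3 cells held 270 of its 293 UMIs in KD. Further down the 15 were the inhibitory receptors Havcr2 (TIM-3) and Lag3, at 130 and 80.8 CPM and at 97.2 and 87.6 CPM, and Il10, an inhibitory cytokine, at 62.9 and 55.5 CPM. Treg cells held more Il10, at 74.5 and 165 CPM, and less Lag3, at 60.3 and 42.3 CPM, and held Havcr2 at 149 and 69.0 CPM. The naive-like comparison rests on 13 Ctrl and 51 KD cells.

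Of the cytokines named above for the helper programs, Ifng, that of Th1, was found in the largest share of cells. Tbx21, which encodes T-bet, was at 145 CPM in Ctrl and 158 CPM in KD, a log2 ratio of 0.12 (-0.25 to 0.51), and Ifng was at 322 and 285 CPM, a log2 ratio of -0.18 (-0.43 to 0.09). Ifng was detected in 46.0% (36.6 to 55.7%) of Ctrl cells and 43.5% (37.9 to 49.1%) of KD cells, and in 28.8% and 22.8% when every cell was thinned to 1500 UMIs. In B cells, with medians of 2694 and 2724 UMIs, it was detected in 3.85% and 0.339%. The chemokine Ccl5 was at 1376 and 1425 CPM and the chemokine receptor Cxcr6 at 330 and 333 CPM, with log2 ratios of 0.05 and 0.01. At least 2 of Tbx21, Ifng, Cxcr6 and Ccl5 were found in 72 of 113 Ctrl cells (63.7%, 54.1 to 72.6%) and in 218 of 313 KD cells (69.6%, 64.2 to 74.7%). The other programs were not counted with matching sets of genes. Cells with an Ifng UMI held Tbx21 in 51.9% against 31.1% of those without in Ctrl, and in 53.7% against 38.4% in KD. After thinning the values were 21.9% against 13.9% in Ctrl and 17.1% against 20.3% in KD. Tbx21 was also found in 43.3% and 46.7% of Treg cells.

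Both Th1 genes that passed a 2-fold difference were lower in KD. Over all 5647 genes with at least 50 UMIs in these cells, 0.992% were at least 2-fold lower in KD (56 genes) and 2.67% at least 2-fold higher (151 genes), and of the 12 Th1 genes 2 were lower and none higher. With TMM scaling in place of total UMIs 186 genes were higher and 34 lower, so that 84.5% rather than 72.9% of the genes past 2-fold were higher. Il12rb2, the chain of the interleukin-12 receptor that Th1 cells keep, stood at 187 CPM in Ctrl and 82.0 CPM in KD, a log2 ratio of -1.19 (-1.57 to -0.80). It was detected in 43.4% (34.1 to 53.0%) of Ctrl cells and 21.1% (16.7 to 26.0%) of KD cells, and after thinning in 18.9% (12.1 to 27.5%) and 10.1% (6.96 to 14.0%). In CD8 T cells its log2 ratio was -0.42 (-0.61 to -0.24), and in Treg cells it was at 60.3 and 33.4 CPM, from 17 and 15 UMIs. Over all alternatives the ratio in activated conventional CD4 T cells stayed between -1.69 and -0.72.

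Tnf, a cytokine of many effector cells, was at 120 CPM in Ctrl and 38.2 CPM in KD, a log2 ratio of -1.65 (-2.18 to -1.12). The 63 Ctrl UMIs came from 22 cells, of which 1 held 22, and the ratio was -1.15 when the highest cell of each library was left out, -0.58 without cells that held Lef1 or Tcf7, and -2.32 without those that held Ikzf2 or both Il2ra and Ctla4. The other 10 Th1 genes had ratios from -0.50 (Runx3) to 0.62 (Cxcr3), and the median over the list was -0.09, beside -0.04 over all genes with at least 20 UMIs.

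Cytokines of the Th2 and Th17 programs were scarce, while Gata3 was not. Gata3, the Th2 transcription factor, was found in 36.3% of Ctrl and 40.9% of KD cells, beside 40.7% and 45.0% for Tbx21, and was at 111 CPM in Ctrl and 139 CPM in KD, a log2 ratio of 0.33 (-0.09 to 0.77). No UMI of Il5 was found in any of the cells. Il4 had 33 UMIs in 2 Ctrl cells, 32 of them in 1 cell, and 9 UMIs in 6 KD cells, so that its log2 ratio of -3.50 became 0.96 without the highest cell of each library. Il13 had 1 and 16 UMIs.

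Of the Th17 genes, Il17a and Il22 had no UMI in either library, and Il17f had 2 and 1. The 3 genes of that list with at least 20 UMIs were Tmem176a, Tmem176b and Il1r1, which myeloid cells also express, and they held 4 and 60, 2 and 42, and 0 and 25 UMIs in Ctrl and KD. Cxcr5, the follicular homing receptor, had 2 and 10 UMIs. Bcl6 was at 59.1 and 46.3 CPM, a log2 ratio of -0.35 (-0.98 to 0.30), and Sh2d1a, which encodes the SLAM adaptor SAP, at 206 and 262 CPM, a log2 ratio of 0.34 (0.04 to 0.66).

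Il21 differed more than the other follicular genes. It held 24 UMIs in 12 Ctrl cells and 142 UMIs in 60 KD cells, or 45.8 and 87.6 CPM, with a log2 ratio of 0.94 (0.31 to 1.63). The ratio was 1.82 without the highest cell of each library, which held 12 of the 24 Ctrl UMIs, but -0.04 without the cells that held Ikzf2 or both Il2ra and Ctla4, and 0.07 after thinning. Il21 was detected in 10.6% (5.61 to 17.8%) and 19.2% (15 to 24.0%) of the cells, and after thinning in 5.41% and 7.49%. Of the Il21+ cells none of 12 in Ctrl and 7 of 60 in KD held Cxcr5 or Bcl6, whereas 9 of 12 and 41 of 60 held Ifng.

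Receptors and ligands of costimulation were mostly within 2-fold, and those whose interval left out 0 were lower in KD. Of the 12 genes of that list with at least 50 UMIs, none was 2-fold higher or lower. The median ratio over the 14 genes with at least 20 UMIs was -0.13, beside -0.04 over all such genes. Cd28, the main costimulatory receptor, was at 459 CPM in Ctrl and 467 CPM in KD, a log2 ratio of 0.02 (-0.19 to 0.24). The TNF receptor family members Tnfrsf18 (GITR) and Tnfrsf9 (4-1BB), which activated T cells gain, had ratios of -0.52 (-0.76 to -0.27) and -0.66 (-0.93 to -0.37). With Tnfrsf4, Icos and Cd69, whose ratio was -0.39 (-0.71 to -0.06), these were the 5 genes whose interval lay below 0. No gene of the list had an interval above 0. Over all genes with at least 20 UMIs, 7.68% had an interval below 0 and 6.08% above 0. These shares grow with the count of UMIs, and were 12.4% and 6.97% for genes with at least 100 UMIs.

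Of the 10 inhibitory receptor and exhaustion genes 6 had ratios above 0 and 4 below 0, beside 47.1% and 52.9% of all genes with at least 20 UMIs. Tox, a transcription factor of chronically stimulated T cells, was at 1068 CPM in Ctrl and 1230 CPM in KD, a log2 ratio of 0.20 (0.07 to 0.34), and was found in 86.7% and 87.2% of the cells. Pdcd1, which encodes PD-1, was at 206 and 241 CPM, a log2 ratio of 0.23 (-0.08 to 0.55), and Ctla4 was at 671 and 804 CPM, a log2 ratio of 0.26 (0.09 to 0.43). Havcr2 was lower in KD, with a log2 ratio of -0.68 (-1.12 to -0.24). None of the 9 genes of this list with at least 50 UMIs passed 2-fold. The remaining gene, Cd160, held 3 UMIs in 3 Ctrl cells and 36 UMIs in 19 KD cells, a log2 ratio of 1.96. Ctla4 and Ikzf2, which encodes Helios, were used in the selection, and Ikzf2 was at 742 CPM in Ctrl and 405 CPM in KD, a log2 ratio of -0.87 (-1.06 to -0.69).

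**Figure D3:**
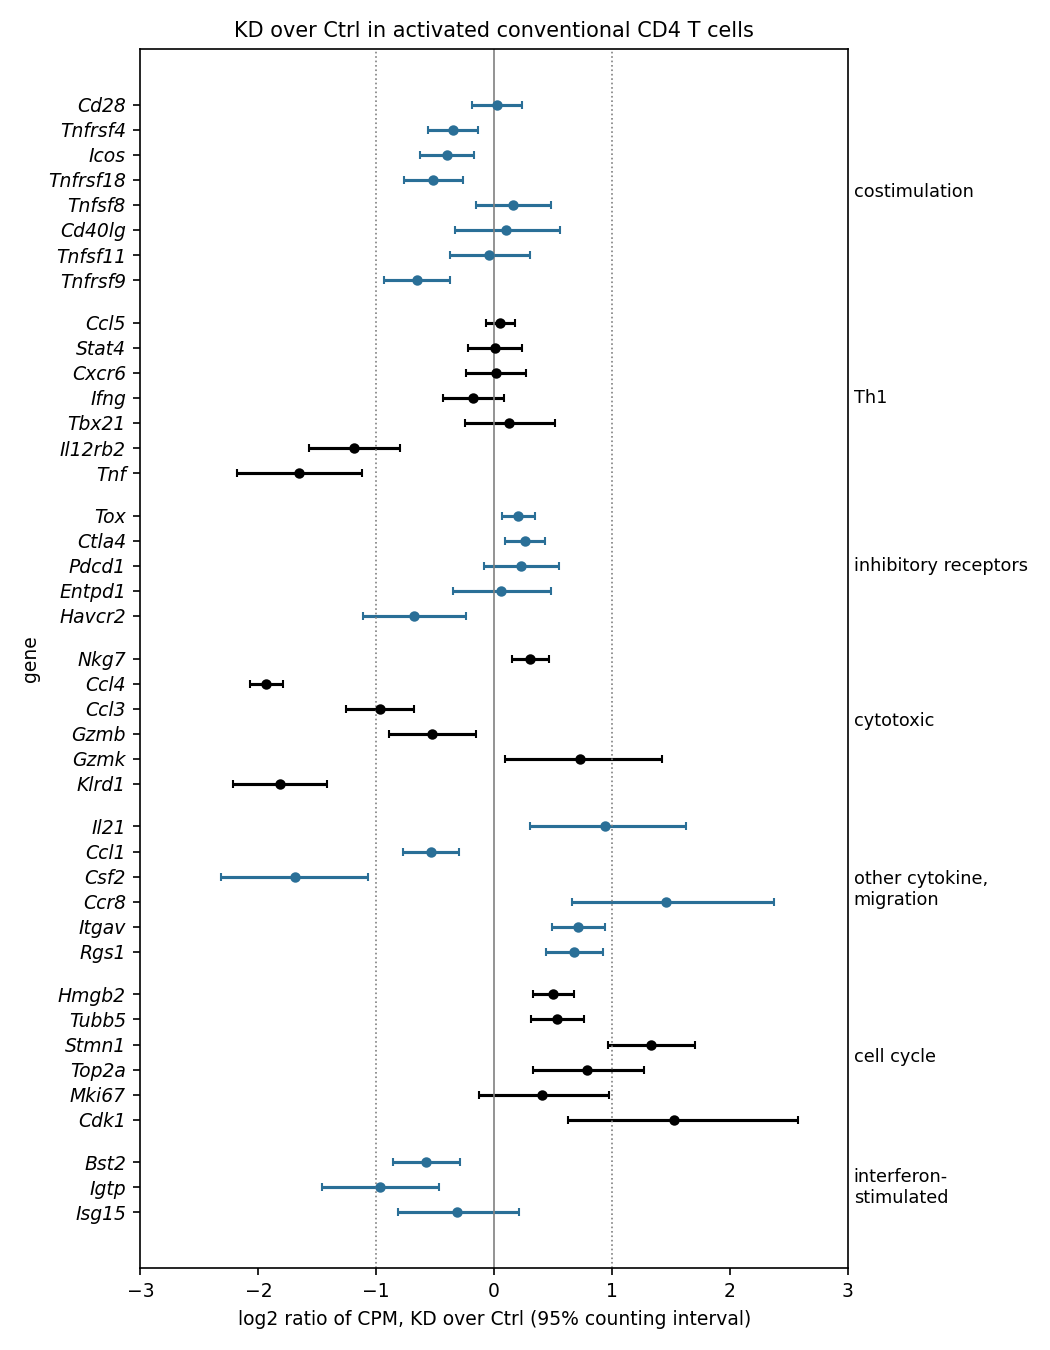
Points give the log2 ratio of CPM, KD over Ctrl, of 41 genes in activated conventional CD4 T cells, with lines for the 95% counting interval and dotted lines at a 2-fold difference. Il12rb2, Tnf, Ccl4, Klrd1 and Csf2 lay below -1, Stmn1, Cdk1 and Ccr8 lay above 1, and most costimulation and Th1 genes lay within 2-fold.

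Cytotoxic genes differed in both directions. Nkg7, a granule protein, was at 791 CPM in Ctrl and 977 CPM in KD, a log2 ratio of 0.30 (0.15 to 0.46), Gzmb at 172 and 119 CPM, a ratio of -0.53 (-0.90 to -0.15), and Gzmk at 45.8 and 75.9 CPM, a ratio of 0.73 (0.09 to 1.43). Gzma had only 2 and 25 UMIs and Prf1, the gene of perforin, 5 and 7. Klrd1, an NK-type receptor, was at 217 and 61.7 CPM, a log2 ratio of -1.82 (-2.22 to -1.42), and was detected in 28.3% of Ctrl and 13.1% of KD cells. In CD8 T cells Klrd1 was detected in 84.6% of cells in each library and had a ratio of -0.13.

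Ccl4, a chemokine of effector T cells, had the lowest ratio among the genes with at least 100 UMIs that passed the filters for naming. It was at 1710 CPM in Ctrl and 448 CPM in KD, a log2 ratio of -1.93 (-2.07 to -1.79). In CD8 T cells it was at 1264 and 1097 CPM, and in Treg cells at 670 and 310 CPM. Of the activated conventional cells, 3 in Ctrl held 524 of the 897 UMIs, and 3 in KD held 273 of the 727. It was detected in 40.7% and 30.7% of the cells and in 23.4% and 19.5% after thinning, so the shares of cells differed less than the sums. Its relative Ccl3 had a log2 ratio of -0.97 (-1.26 to -0.68).

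Some secreted factors were carried by few cells, while Ccl5 was detected in 52.2% of Ctrl and 62.9% of KD cells. The granulocyte-macrophage factor Csf2 held 47 UMIs in 9 Ctrl cells and 45 UMIs in 17 KD cells, a log2 ratio of -1.69 (-2.31 to -1.07), with 21 of the Ctrl UMIs in 1 cell. Xcl1, a chemokine for cross-presenting dendritic cells, held 50 UMIs in 9 Ctrl cells, 34 of them in 1 cell, and 36 UMIs in 21 KD cells. Of Ccl1, 3 cells held 186 of 216 UMIs in Ctrl and 228 of 460 in KD. For comparison, the 3 highest cells held 14.5% of the Icos UMIs in Ctrl and 5.44% in KD. At least 50% of the Ccl1 UMIs lay in 2 Ctrl and 4 KD cells, or 1.77% and 1.28% of the cells.

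**Figure D4:**
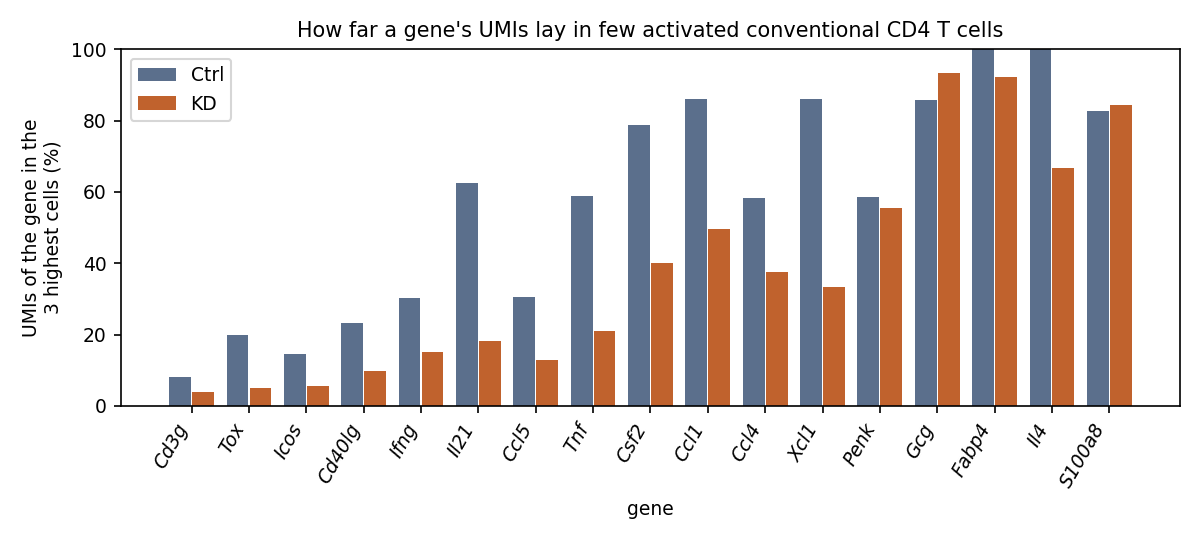
Bars give the percentage of a gene's UMIs that lay in the 3 highest of 113 Ctrl or 313 KD cells. It ran from 8.20% and 3.86% for Cd3g to over 80% in both libraries for Gcg and S100a8, which had 35 and 23 UMIs in Ctrl. Fabp4 was at 92.2% in KD, while its 2 Ctrl UMIs lay in 2 cells, so that its Ctrl bar could only be 100%. The 3 highest cells are a larger part of 113 than of 313 cells, which raises the Ctrl bars.

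Among genes of migration Ccr8 had the highest ratio. It held 14 UMIs in 14 Ctrl cells and 119 UMIs in 76 KD cells, or 26.7 and 73.4 CPM, a log2 ratio of 1.46 (0.66 to 2.37). It was detected in 12.4% (6.94 to 19.9%) and 24.3% (19.6 to 29.4%) of the cells, in no B cell of either library, and after thinning in 4.50% and 8.47%. Its ratio stayed between 1.30 and 1.97 over the alternatives and was -0.41 (-1.47 to 0.53) in CD8 T cells and 0.71 (-0.18 to 1.67) in Treg cells. Cx3cr1, a receptor of effector cells, was lower in KD, at 62.9 and 30.8 CPM.

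Itgav, the alpha chain of integrins that activate TGF-beta, was at 383 CPM in Ctrl and 628 CPM in KD, a log2 ratio of 0.71 (0.49 to 0.94), and at -0.13 in CD8 T cells and 0.94 in Treg cells on the same scale. Rgs1, which dampens chemokine receptor signals and marks tissue T cells, was at 334 and 534 CPM, a log2 ratio of 0.68 (0.44 to 0.92), with 0.57 in CD8 T cells. Bhlhe40 and Batf, transcription factors of activated T cells, had ratios of 0.45 (0.26 to 0.63) and 0.50 (0.16 to 0.85). Of the 15 genes of the T cell receptor response list, Bhlhe40, Batf and Junb had intervals above 0. Jun, Nr4a3, Egr1 and Egr3 had intervals below 0, so the list had no common direction. Over all genes with at least 20 UMIs, 6.08% had an interval above 0 and 7.68% below 0, and over those with at least 100 UMIs 6.97% and 12.4%. Trbc1 was higher in KD, at 242 and 616 CPM, a ratio of 1.35 (1.08 to 1.63), and its close copy Trbc2 had a ratio of 0.22. Whether reads were split between them was not tested, so both values are uncertain.

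Cell cycle genes were the list with the most genes past 2-fold. Of its 12 genes, 5 were at least 2-fold higher in KD, none was 2-fold lower, and 11 were above 0, with a median log2 ratio of 0.66. Over all genes tested 2.67% were 2-fold higher and 0.992% lower, and 47.1% of those with at least 20 UMIs were above 0. Stmn1, a tubulin regulator of dividing cells, was at 135 CPM in Ctrl and 340 CPM in KD, a log2 ratio of 1.33 (0.97 to 1.71), and Top2a at 87.7 and 151 CPM, a ratio of 0.79 (0.33 to 1.27). Mki67 was at 68.6 and 90.7 CPM with a ratio of 0.40 (-0.13 to 0.97). Cells with at least 2 UMIs of Mki67 and Top2a were 12 of 113 in Ctrl (10.6%, 5.61 to 17.8%) and 45 of 313 in KD (14.4%, 10.7 to 18.8%), and those of KD were deeper, with medians of 6557 and 8665 UMIs. Without these cells the median ratio of the list was -0.27, and the shares of cycling cells had overlapping intervals. The ratios of Pclaf and Ube2c also changed sign without them, to -0.74 and -0.70, and those of H1f5, H4c4 and Cdk1 were then 0.77, 0.75 and 0.43.

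The rule on the 10 highest ratios named mostly genes of dividing cells. H1f5, H4c4, Pclaf, Ube2c, Cdk1 and Prc1 had ratios from 1.47 to 2.61. The others were Ccr8, described above, and Fabp4, Cst3 and Selenop, genes of endothelial or myeloid cells. Fabp4 had a ratio of 5.57, but 3 KD cells held 270 of its 293 UMIs, and without cells that held neutrophil or endothelial UMIs the ratios of Fabp4 and Selenop were 1.06 and 0.22. Of the Cst3 UMIs in KD, 559 of 788 lay in 3 cells.

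The 10 lowest ratios included those of Ccl4, Tnf, Il12rb2, Cd80, Phlda1, Pde3b, Ms4a4c, Rbm47 and Lamc1, which ran from -1.93 to -0.98. Without cells that held Lef1 or Tcf7, that of Cd80 became 0.56 and that of Ms4a4c -0.23, and after thinning those of Rbm47 and Lamc1 were -0.30 and -0.20. Phlda1 and Rbm47 were lower in KD CD8 T cells as well, at -1.41 and -0.89. Pde3b, a phosphodiesterase, and Ms4a4c were not: their ratios were -1.12 (-1.42 to -0.82) and -1.06 (-1.57 to -0.54) here and 0.37 and 0.31 in CD8 T cells. These comparisons between cell types are descriptions of the same 2 libraries.

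Of 14 interferon-stimulated genes with at least 20 UMIs 12 had ratios below 0, beside 52.9% of all such genes. The intervals of 5 lay below 0, beside 7.68% of all such genes and 9.83% of those with at least 50 UMIs. The median ratio was -0.41, beside -0.04 over all genes with at least 20 UMIs. Bst2 was at 288 CPM in Ctrl and 193 CPM in KD, a log2 ratio of -0.58 (-0.86 to -0.29), and Igtp, an interferon-gamma-induced GTPase, at 109 and 55.5 CPM, a ratio of -0.97 (-1.46 to -0.46). Of the 8 genes with at least 50 UMIs none was past 2-fold in either direction.

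Glycolysis genes were even, with a median of -0.01 over 12 genes. Gapdh was higher, at 1047 CPM in Ctrl and 1338 CPM in KD, and Slc2a3, a glucose transporter, lower, with a ratio of -0.93 (-1.33 to -0.53). The SLAM family had a median of -0.01 as well. Ly9 (ENSMUSG00000004707), the gene targeted in the tumor cells and not in these cells, held 13 UMIs in Ctrl and 40 UMIs in KD, or 24.8 and 24.7 CPM, a log2 ratio of -0.01 (-0.94 to 1.02). At this depth its interval covered ratios in both directions, and the ratio was 1.14 without cells that held Lef1 or Tcf7. Cd48, a ligand within the family, was at 223 and 238 CPM and Cd84 at 120 and 112 CPM, and none of the 7 genes with at least 50 UMIs passed 2-fold.

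The cells also varied among themselves. Ifng+ cells held Cxcr6 more often than Ifng- cells, in 78.8% against 41.0% in Ctrl and in 75% against 51.4% in KD, and held Pdcd1 more often, in 63.5% against 31.1% and in 68.4% against 45.8%. The Ifng+ and Ifng- cells were alike in depth in Ctrl, with medians of 4085 and 4082 UMIs, but not in KD, with 5175 and 3778. After thinning to 1500 UMIs the KD values were 47.1% against 34.2% for Cxcr6 and 31.4% against 26.2% for Pdcd1. Il7r, the interleukin-7 receptor of resting and memory T cells, was instead found in 19.2% of Ifng+ and 37.7% of Ifng- cells in Ctrl, and in 19.1% and 40.1% in KD, where thinning gave 11.4% and 23.2%.

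Il7r+ cells, of which there were 33 in Ctrl and 97 in KD, held Tnfsf8 more often than Il7r- cells, in 12 of 33 against 12 of 80 cells in Ctrl and in 36.1% against 23.1% in KD, and Bcl6 in 36.4% against 12.5% and in 20.6% against 13.0%. They held Cxcr6 less often, in 36.4% against 67.5% and in 44.3% against 69.4%. After thinning this difference remained in Ctrl (10.5% against 40.2%) but not in KD (36.5% against 37.3%), where the Il7r+ cells were the shallower, with medians of 3802 and 4612 UMIs. That of Tnfsf8 was then 15.8% against 13.0% in Ctrl and 22.2% against 16% in KD. Gzmk+ cells held Ccl5 in 80.0% against 48.0% in Ctrl and in 93.6% against 57.5% in KD, and Tnfsf8 in 13.3% against 22.4% and in 6.38% against 30.8%. The KD Gzmk+ cells were deeper, with medians of 6808 and 4146 UMIs, and thinning gave 82.6% against 47.5% for Ccl5 there, while it left 3 Gzmk+ cells in Ctrl. In KD 20 of 48 Mki67+ cells held Gzmk, against 10.2% of the rest, and in Ctrl 3 of 15 did, against 12.2%. The KD Mki67+ cells were deeper as well, with medians of 7976 and 4143 UMIs.

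**Figure D5:**
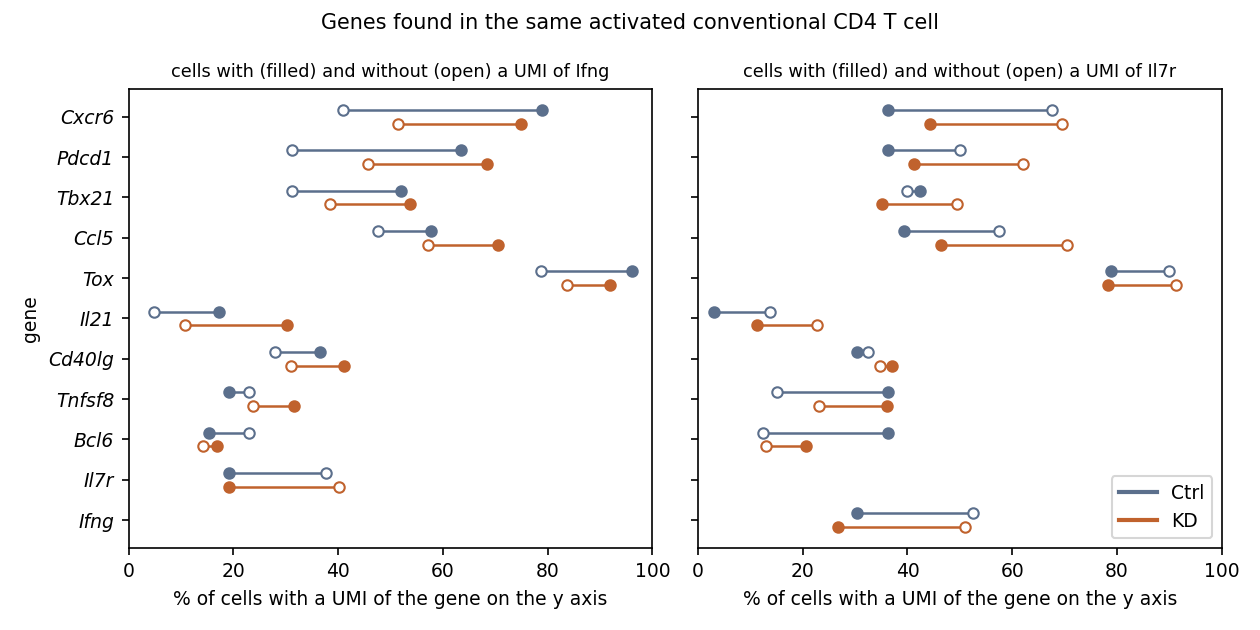
Points give the percentage of cells with a UMI of the gene on the y axis, among cells with (filled) and without (open) a UMI of Ifng (left) or Il7r (right), in each library. Cxcr6, Pdcd1 and Tox were more frequent in Ifng+ cells and less frequent in Il7r+ cells of both libraries, and Tnfsf8 and Bcl6 were more frequent in Il7r+ cells. These are unthinned values, and after thinning the Cxcr6 values of KD Il7r+ and Il7r- cells were 36.5% and 37.3%.

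Co-detection was also counted around Igfbp7 and Il10, both among the 15 genes highest over naive-like CD4 T cells. Igfbp7, a secreted binding protein, was found in 29 Ctrl and 86 KD cells. Those cells held Ccl1 in 24.1% against 7.14% of the others in Ctrl and in 31.4% against 5.29% in KD, and Penk, the gene of proenkephalin, in 17.2% against 4.76% and in 19.8% against 3.96%. They held Gzmb in 17.2% against 22.6% in Ctrl and in 2.33% against 20.7% in KD. Il10+ cells, 11 in Ctrl and 28 in KD, held Ccl4 in 63.6% against 38.2% and in 64.3% against 27.4%, and Gzmb in 27.3% against 20.6% and in 14 of 28 cells against 12.3%. The Igfbp7+ cells were deeper, with medians of 5774 and 5139 UMIs against 3614 and 4063 in the others. So were the Il10+ cells, with 4722 and 5713 UMIs against 4039 and 4314. No values after thinning are given for these pairs.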

How the data were processed

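The authors deposited raw UMI counts per gene and cell. The submitters' processing notes name Cell Ranger 7.1.0, Seurat 5.1.0, R 4.4.1 and the build GRCm39. A cell was kept if it had 200 or more genes, no more than 10% of UMIs from mitochondrial genes, and no more than 30000 UMIs or 6000 genes. The upper limits were the only treatment of doublets. Members and lists were chosen with earlier results of these data known.

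UMIs were summed over the members of a library. CPM are UMIs per 1000000, and log2 ratios carry exact conditional binomial 95% intervals, tested on simulated data. The simulation drew UMIs independently, so it could not show how the intervals hold where a few cells carry a gene's UMIs. Shares carry exact Clopper-Pearson intervals. A count of 0 entered a ratio as 3 counts. Thinning drew 1500 UMIs from each cell, and 2 Ctrl and 6 KD members were too shallow for it. CD8 T cells were CD3+ Cd4- cells with at least 2 UMIs of Cd8a and Cd8b1, and B cells CD3- cells with at least 2 of Cd79a.

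Genes were named by rule: the 6 markers, Ly9, up to 4 genes with the most UMIs of each list, lineage genes, the 10 highest and 10 lowest ratios among genes with at least 100 UMIs and 0.2 times the CPM of the population highest for them, and the 15 highest over CD8 and naive-like T cells, leaving out ribosomal, mitochondrial, hemoglobin, receptor segment, sex and unnamed genes. Other genes, among them Klrd1, Xcl1, Csf2, Penk, Trbc1 and those singled out from lists for their ratios, were named after their values were seen. With 1 library a group no test was made, and the values compare these libraries, not the conditions. Python 3.11.15, numpy 2.4.6, scipy 1.17.1 and, for TMM, edgeR 4.0.16 were used. Some genes the rule named are not reported here.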

Additional observations from a re-analysis of the deposited data

How the results depend on the processing

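Each group was 1 library, so leaving out a library was not run. No paired analysis was possible because each group had 1 library. The higher KD share of filtered and of CD3+ cells kept its direction in every alternative run, whereas the difference among Cd4+ Cd8- CD3+ cells ran from -3.94 to 12.0 percentage points. The value of -3.94 came from leaving out members with neutrophil or endothelial UMIs, which kept 111 Ctrl and 285 KD members. The denominator was not cut with them. With cells thinned before selection, which applied to members and denominator, the shares were 92% in Ctrl and 93.6% in KD. With Cd4 of at least 2 UMIs the difference was 1.42 percentage points of filtered cells, 8.01 of CD3+ cells and 12.0 of Cd4+ Cd8- CD3+ cells. Without Ikzf2+ or Il2ra+ Ctla4+ cells it was 1.16 of filtered and 6.55 of CD3+ cells, without Lef1+ or Tcf7+ cells 1.16 and 6.62, and with cells thinned before selection 1.22 and 8.58. Without cycling cells it was 9.75 of CD3+ cells. Fewer cells meet a stricter selection, and other causes were not tested. Genes 2-fold higher numbered 25 after thinning and 978 with 1 UMI in each library as the only filter, beside 151, and genes 2-fold lower 29 and 1568, beside 56. The latter were 34 with TMM and 27 without the highest cell of each gene, an alternative chosen after seeing the data, like those without neutrophil or endothelial UMIs and with equal weight per cell. The median ratio of the 6 markers went from -0.18 to 0.058, Icos to 0.23 and Il21 to -0.043 without Ikzf2+ or Il2ra+ Ctla4+ cells. Without cycling cells the cell cycle median was -0.27, Pclaf -0.74 and Ube2c -0.70. Il4 became 0.96 without its highest cell, Cd80 0.56 without Lef1+ or Tcf7+ cells, and the NKT and gamma-delta median 0.61, from -1.24, with Cd4 of at least 2 UMIs. The cause was not tested. Of 503 alternatives for 36 genes, 441 left the ratio within its counting interval, 56 moved it outside and 6 were labelled reversed. Ratios close to 0 also changed sign without that label. That of Cd40lg, at 107 CPM in Ctrl and 115 CPM in KD, became -0.43 with Cd4 of at least 2 UMIs. That of Ly9 became 1.14 without Lef1+ or Tcf7+ cells, and that of Tbx21 ran from -0.24 to 0.37.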
